A study of Mus musculus with 18 samples.

Results

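The comparison described here asks which parts of the fibroblast response to keratinocyte co-culture differ when the kinases JNK1 and JNK2 are missing. It is the interaction of genotype and co-culture, that is (KO co-culture minus KO day 0) minus (wildtype co-culture minus wildtype day 0), on a log2 scale. It uses 12 of the series' 18 arrays, defined by sample title. They form 1 processing set, a grouping read from the detection p-values of the dimmest probes of each array. The arrays were picked by that reading, which gave the same 12. The KO group holds jnk1-/-jnk2-/- mouse embryonic fibroblasts (called KO here) in co-culture with normal human epidermal keratinocytes, with 2 arrays at day 2, 2 at day 4 and 1 at day 6, and 1 KO array before co-culture (day 0). The wildtype group has the same layout, with 5 co-culture arrays and 1 at day 0. A positive interaction means that the change in co-culture was more positive in KO, and a negative one that it was more negative.

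Both genotypes were on the BL6/129/Sv background, came from E10.0 embryos and had been immortalised by the 3T3 protocol. All cells grew on culture inserts in FAD medium with insulin, hydrocortisone, cholera toxin and hEGF, at day 0 as in co-culture, so these agents are common to every group. The day counts keratinocyte culture: inserts were exchanged every second day, and the fibroblasts of each sample had met only the last interval. Day 0 and replicate 1 arrays each hold 2 pooled inserts, and replicate 2 of days 2 and 4 holds 1 insert. The labels name 1 line per genotype, so the loss of JNK1 and JNK2 and any other difference between the 2 lines cannot be told apart. The p-values measure the spread of the co-culture arrays of these lines around their genotype mean. That spread holds differences between days and between arrays of 1 and 2 inserts, and may be partly technical.

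JNK1 and JNK2, the products of Mapk8 and Mapk9, are stress-activated kinases that phosphorylate Jun and other proteins of the AP-1 family. AP-1 factors bind promoters and enhancers of cytokine, protease and growth factor genes. In skin co-cultures keratinocytes release interleukin-1, and fibroblasts answer with cytokines and growth factors that act back on the epidermis, a loop in which AP-1 is known to take part. Type I interferon signalling is a separate route, which switches on antiviral genes through a promoter element called the ISRE.

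Mean bead intensity ran from 392 to 482 on the 12 arrays, and 37.3% to 40.8% of probes were detected (detection p under 0.01). Mapk9 lay between 4.60 and 5.30 (normalised log2 signal) on the 6 KO arrays and between 9.74 and 10.16 on the 6 wildtype arrays. Mapk8 was dim in both, with its tested probe between 5.40 and 5.99 in KO and between 5.17 and 6.01 in wildtype. Where the Mapk8 probes lie relative to the deleted part is not given in the sources used here, so Mapk8 does not check the labels. Pdgfra, Pdgfrb, Col1a1, Vim, Twist1 and Prrx1, which mark fibroblasts, were detected on 6 KO and 6 wildtype arrays, and Mfap5 on 0. Other fibroblast markers were detected mostly in wildtype: Thy1 on 1 KO and 5 wildtype arrays, Cd34 on 0 and 6, Fap on 0 and 5 and Dpt on 2 and 5. Of the keratinocyte markers, Krt5, Lor and Dsg3 were detected on 0 arrays, Krt14 and Krt1 on 3 KO and 0 wildtype arrays, Ivl on 1 KO and 6 wildtype arrays, Trp63 on 4 KO and 1 wildtype arrays and Krt10 on 6 and 6. The 9 keratinocyte marker genes tested averaged 5.19 to 5.51 across KO arrays and 5.36 to 5.64 across wildtype arrays, and 0 of them had a called interaction. Their part in the results was not tested. Endothelial Pecam1, Cdh5 and Tek were detected on 0 arrays, but Flt1 on 6 KO and 6 wildtype arrays and Kdr on 2 and 2. Macrophage Lyz2 and Itgam were detected on 0 arrays, but Cd14 on 6 KO and 6 wildtype arrays and Csf1r on 5 and 5. Of the genes tested, 0 of 2 endothelial and 0 of 3 macrophage genes were called. The arrays measure RNA of a whole insert, so fewer cells of a kind and less RNA per cell cannot be told apart.

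Of 15497 features tested (11704 named genes and 3793 probes without a single symbol), 1204 (7.77%) had an interaction at an adjusted p under 0.05 in limma's moderated test. The interaction was higher in 689 (4.45%) and lower in 515 (3.32%). It reached 2-fold in 721 of them, 376 higher and 345 lower. In KO alone 2047 features rose (13.2%) and 1716 fell (11.1%) in co-culture, against 1384 that rose (8.93%) and 1295 that fell (8.36%) in wildtype. The called features were sorted by which genotype moved more. Induction was absent or smaller in KO for 273 features, and 84 of them still rose in KO by the same test. Repression was absent or smaller in KO for 176 features, of which 11 also fell in KO. Induction was found in KO alone or was larger there for 453 features, of which 73 also rose in wildtype, and repression was KO-only or larger in KO for 200, of which 30 also fell in wildtype. In 71 features KO and wildtype moved past the threshold in opposite directions, and in 31 neither response passed. These classes describe the arrays that gave the interaction and carry no test of their own.

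**Figure D1:**
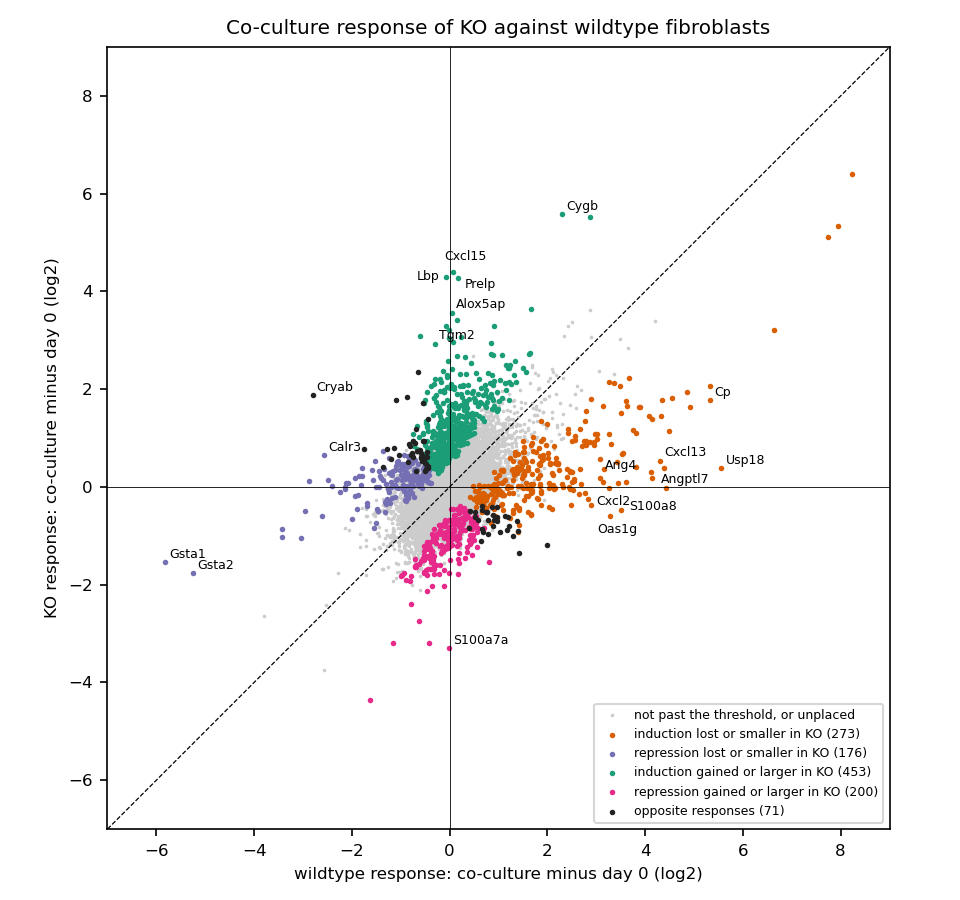
Fitted co-culture response of 15497 features, with the KO response on the y axis and the wildtype response on the x axis, both as log2 co-culture minus day 0. Coloured points passed the interaction test and are sorted into the classes of the text (273, 176, 453, 200 and 71 features), and the dashed line marks equal responses. Usp18, at 5.56 on the x axis and 0.39 on the y axis, moved in wildtype with no called change in KO.

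With all 18 arrays in 1 fit and the processing set as a block, 333 features passed. Of 119 calls of named genes followed there, 66 missed the threshold, among them those of Usp18, Cygb, Gper1, Kazald1, Ang4, Akr1c18, Col2a1 and Sh3rf2. The direction split changed with the scaling of the arrays. Scaling each array to a common median in place of quantile normalisation gave 873 calls, of which 32.3% were higher in place of 57.2%, and moved the median interaction of all features to -0.09 from 0.04. Under the same scaling the share of rises among the calls of KO alone was 42.3% in place of 54.4%, and of wildtype alone 65.3% in place of 51.7%. Sizes were smaller on the authors' log2 values: of 120 named calls, 61 were over 1.5 times smaller there, with a median ratio of 1.5. All interactions rest on 1 day 0 array per genotype, assumed to vary like the co-culture arrays. The KO minus wildtype difference was wider in co-culture than at day 0 for 547 of the called features and narrower for 657. The same day 0 arrays gave the calls, so this split is partly built in, and the split over all features was not taken.

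Among genes detected in both genotypes, those with the largest loss of induction in KO were Usp18, S100a8, Angptl7, Oas1g, Cxcl13 and Cp. Usp18, a protease that removes ISG15 and dampens interferon signalling, had a log2 signal of 4.43 at day 0, 5.37 and 4.61 at day 2, 4.59 and 5.14 at day 4 and 4.40 at day 6 in KO. In wildtype it had 5.41 at day 0, 11.61 and 11.31 at day 2, 10.71 and 10.61 at day 4 and 10.61 at day 6. Every wildtype co-culture array stood above every KO array, while the KO arrays in co-culture lay within 1 log2 unit of their day 0 array. In KO, Usp18 was undetected at day 0 and detected on 2 of 5 co-culture arrays. Most of its KO values are therefore background readings, and a small KO response could not have been measured. Usp18 rose 47.1-fold in wildtype, and its interaction was -5.17 ± 0.46 (log2 ± SE, 5 co-culture arrays and 1 day 0 array per genotype, adjusted p = 1.2e-07). A second Usp18 probe gave -4.27. S100a8, a subunit of calprotectin, differed already before co-culture. It had 10.64 at day 0, 10.31 and 10.40 at day 2, 9.84 and 10.42 at day 4 and 9.83 at day 6 in KO, against 5.49, 9.45 and 8.36, 9.05 and 8.67, and 9.46 on the same days in wildtype. The wildtype arrays climbed 11.3-fold towards a level that KO held from the start, and the interaction was -3.98 ± 0.41 (adjusted p = 8.3e-07). Cp, which encodes the copper oxidase ceruloplasmin, showed a similar start: 8.96 at day 0 and 10.60 to 10.88 in co-culture in KO, against 5.10 at day 0 and 9.92 to 11.21 in co-culture in wildtype. Cp rose in both genotypes, 3.41-fold in KO and 40.0-fold in wildtype, with an interaction of -3.55 ± 0.40, and of its other probes 1 gave -1.77 and 1 gave 0.63. Across the 273 features of this class, 171 were higher in KO than in wildtype at day 0, and in 53 the KO day 0 level lay above the mean of the wildtype co-culture arrays. These counts use the day 0 arrays that chose the class and are partly built in. Their shares over all features were not taken.

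Angptl7, a secreted angiopoietin-like protein, ran from 4.27 to 5.44 in KO co-culture beside 4.45 at day 0, against 9.51 to 9.98 in wildtype co-culture beside 5.64 at day 0. Its interaction was -3.97 ± 0.43 (adjusted p = 1.9e-06), and it was detected on 1 of 6 KO arrays. Oas1g, of the interferon-induced oligoadenylate synthetases, ran from 4.22 to 4.82 in KO co-culture beside 5.16 at day 0, against 6.95 to 7.95 in wildtype co-culture, where day 0 was not above background and the rise was at least 7.23-fold. Cxcl13, a chemokine that draws B cells, ran from 4.55 to 5.49 in KO co-culture, against 8.22 to 9.03 in wildtype co-culture, a rise of at least 16.1-fold in wildtype. The interactions of Oas1g and Cxcl13 were -3.88 ± 0.43 and -3.77 ± 0.45, but -1.76 and -2.12 on the authors' log2 values. Oas1g was detected on 2 of 6 KO arrays and Cxcl13 on 1, so their KO values are mostly background readings. Detected in wildtype alone were 28 features of this class. Ang4, a secreted ribonuclease, rose 12.2-fold in wildtype to values between 7.43 and 9.76, and Cxcl2, a neutrophil chemokine, at least 7.41-fold to values between 6.76 and 8.50. Both were undetected on all 6 KO arrays, where Ang4 lay between 4.20 and 4.59 and Cxcl2 between 4.07 and 4.17.

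The interferon-stimulated genes, antiviral effectors and their regulators, rose less in KO. Of 19 tested, 14 had a lower interaction, beside 3.32% of all features, and 0 a higher one, with a median of -1.96 beside 0.04 over all features, and 9 rose in KO against 17 in wildtype. The median response of the list was 0.68 in KO and 3.07 in wildtype (log2). The mean level of the list was 6.36 at day 0, 7.14 and 7.06 at day 2, 7.02 and 6.98 at day 4 and 7.05 at day 6 in KO. In wildtype it was 6.32 at day 0, 9.30 and 9.07 at day 2, 8.82 and 8.76 at day 4 and 8.62 at day 6. The genotypes started level and were apart by day 2, and 0 of 5 wildtype co-culture arrays overlapped with KO. Igtp, an interferon-induced GTPase, had 5.41 at day 0 and 6.10 to 6.79 in co-culture in KO, against 4.48 (not above background) and 8.43 to 9.48 in wildtype, so that it rose 2.19-fold in KO and at least 20.6-fold in wildtype. Mx2, an antiviral GTPase, had 4.26 to 4.89 in KO co-culture, against 7.19 to 7.97 in wildtype co-culture, a rise of at least 7.80-fold in wildtype. Gbp3, a guanylate-binding protein, had 7.04 at day 0 and 7.53 to 7.91 in co-culture in KO, against 5.72 and 8.77 to 9.93 in wildtype. The interactions were -3.36 ± 0.39 for Igtp, -3.04 ± 0.43 for Mx2 and -2.85 ± 0.39 for Gbp3.

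Some of the list rose in both genotypes. Isg15, a ubiquitin-like protein, rose by 1.5 in KO and 3.51 in wildtype (log2 response), with an interaction of -2.01 ± 0.33. Irf9, which carries the ISRE-binding complex, rose by 0.88 in KO and 3.30 in wildtype. Stat2, its partner, changed by -0.03 in KO and 1.59 in wildtype, an interaction of -1.62 ± 0.34 (adjusted p = 0.0034). Ifit3 rose by 2.36 in KO and 3.07 in wildtype, and its interaction of -0.70 ± 0.28 did not pass (adjusted p = 0.14). With all 18 arrays fitted together and the processing set as a block, 1 of the 14 calls was left, that of Gbp2 at -2.61 (adjusted p = 0.0083). In that fit Usp18 had -4.54 (adjusted p = 0.051), and its adjusted p ran from 3.2e-15 to 0.051 over 22 alternatives. Over the alternatives the list median ranged from -2.15 to -1.46.

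**Figure D2:**
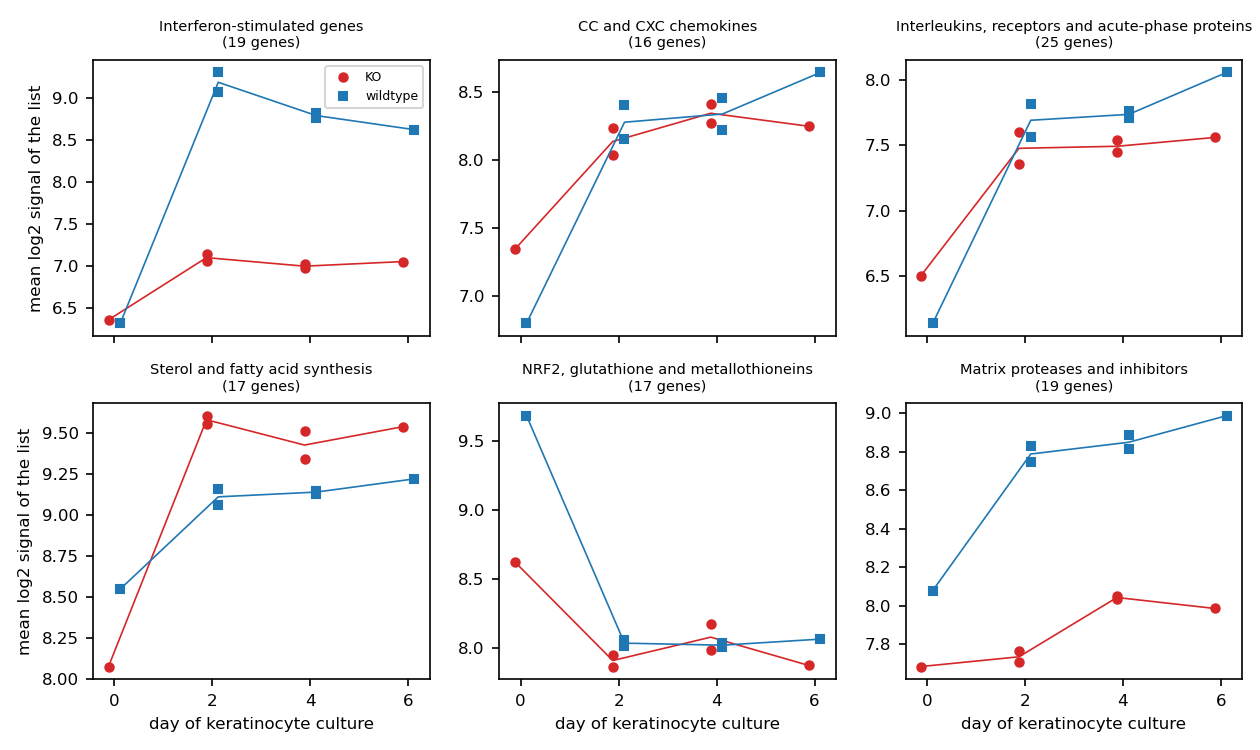
Mean log2 signal of 6 gene lists (y axis) on each of 12 arrays by day of keratinocyte culture (x axis), KO as circles and wildtype as squares, with lines through the means of a day. The 19 interferon-stimulated genes start level at 6.36 in KO and 6.32 in wildtype and separate from day 2, and the 17 NRF2 and glutathione genes start apart and meet in co-culture.

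Promoters are shown for genes whose induction was smaller or repression larger in KO, to set the letters that interferon, AP-1 and NF-kB factors are known to bind beside the values. The ISRE and NF-kB letters were chosen after the values were seen. They come from RefSeq (GRCm38.p6) and run from 250 bases before to 50 after the transcript start, written 5' to 3' on the strand of the gene. Capitals mark GAAA, any 2 bases and GAAA (ISRE) in Igtp, Oas1g and Gbp3, GGG, any 2 bases, TT, any base and CC (NF-kB) in Cxcl2 and TGANTCA (AP-1) in Mmp3 and Il11, each searched on both strands. Overlapping matches run together in Oas1g and Gbp3.
Igtp, chr11:58199306-58199605, plus strand: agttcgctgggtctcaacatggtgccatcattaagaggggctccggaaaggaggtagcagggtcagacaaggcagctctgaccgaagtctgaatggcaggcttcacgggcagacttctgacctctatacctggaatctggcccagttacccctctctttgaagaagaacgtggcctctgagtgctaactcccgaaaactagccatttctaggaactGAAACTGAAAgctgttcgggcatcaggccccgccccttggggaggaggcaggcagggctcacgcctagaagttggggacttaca
Oas1g, chr5:120887564-120887863, minus strand: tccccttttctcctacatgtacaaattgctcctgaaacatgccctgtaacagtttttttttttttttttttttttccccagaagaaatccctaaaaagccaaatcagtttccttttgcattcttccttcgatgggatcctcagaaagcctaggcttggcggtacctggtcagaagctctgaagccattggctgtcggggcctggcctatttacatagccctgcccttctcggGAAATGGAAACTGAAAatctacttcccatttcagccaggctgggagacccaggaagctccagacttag
Gbp3, chr3:142559794-142560093, plus strand: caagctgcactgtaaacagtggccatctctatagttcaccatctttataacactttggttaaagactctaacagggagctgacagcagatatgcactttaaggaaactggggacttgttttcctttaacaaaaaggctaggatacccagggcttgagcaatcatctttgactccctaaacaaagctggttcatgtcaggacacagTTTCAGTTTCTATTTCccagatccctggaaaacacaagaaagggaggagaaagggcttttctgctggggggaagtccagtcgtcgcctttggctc
Cxcl2, chr5:90903649-90903948, plus strand: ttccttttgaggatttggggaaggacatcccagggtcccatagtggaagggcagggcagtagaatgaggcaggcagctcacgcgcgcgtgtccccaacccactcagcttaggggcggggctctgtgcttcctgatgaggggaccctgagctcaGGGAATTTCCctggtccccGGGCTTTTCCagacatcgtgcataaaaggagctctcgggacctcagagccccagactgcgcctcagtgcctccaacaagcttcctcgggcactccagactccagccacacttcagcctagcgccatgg
Mmp3, chr9:7445572-7445871, plus strand: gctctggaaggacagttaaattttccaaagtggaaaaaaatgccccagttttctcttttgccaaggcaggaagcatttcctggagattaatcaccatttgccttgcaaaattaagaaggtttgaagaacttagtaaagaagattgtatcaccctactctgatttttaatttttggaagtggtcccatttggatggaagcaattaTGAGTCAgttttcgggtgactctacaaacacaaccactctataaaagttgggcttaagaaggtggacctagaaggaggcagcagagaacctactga
Il11, chr7:4778092-4778391, minus strand: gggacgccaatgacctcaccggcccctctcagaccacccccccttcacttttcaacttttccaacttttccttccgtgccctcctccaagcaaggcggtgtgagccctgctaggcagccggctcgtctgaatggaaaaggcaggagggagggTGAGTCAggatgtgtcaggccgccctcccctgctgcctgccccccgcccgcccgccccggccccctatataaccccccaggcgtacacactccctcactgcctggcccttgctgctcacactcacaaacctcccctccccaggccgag

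The ISRE letters begin 34 bases before the start in Igtp, 18 and 12 in Oas1g, and 45 and 39 in Gbp3. The NF-kB letters begin 97 and 78 bases before the start in Cxcl2, and the AP-1 letters 46 before it in Mmp3 and 98 before it in Il11. Gbp3 and Il11 each have a further promoter in the table, which lacks these letters. All promoters shown hold a match, but matches were not limited to genes with a lower interaction. Among named genes with a higher one, Dhcr7 and Gask1b held the AP-1 letters and Sgk1 and Tgfbi the ISRE letters. H2-K1, Bmp4, Mvd, Gadd45g and Bbc3 held the NF-kB letters. Of the 15 promoters matched to the interferon-stimulated genes that were lower, 8 (53.3%) held the ISRE letters. The share was 3.05% of 12085 promoters of tested genes and 3.44% of all 32851 in the table. Interferon acts through the ISRE, so a high share goes with how the list was chosen. No share was taken for members of the list that were not called. In the class with smaller induction in KO, 28 of 255 promoters (11%) held the ISRE letters and 28 (11%) the AP-1 letters, beside 3.05% and 6.01% of promoters of tested genes. The AP-1 share was 5.48% in the class of larger induction in KO, 6.54% for smaller repression and 6.59% for larger repression. The CRE letters TGACGTCA stood in 1.18% of the promoters with smaller induction and 4.79% of those with larger repression, beside 2.78% of tested genes. The NF-kB letters stood in 7.84% of the promoters with smaller induction, beside 5.33% of tested genes. These shares describe sequence windows, and nothing was measured on the factors' binding.

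Of 16 chemokines tested 6 were lower (Cxcl2, Ccl2, Cxcl9, Ccl5, Cxcl1 and Ccl7), 2 higher (Cxcl15 and Cx3cl1) and 8 not called, with a median interaction of -0.77. Over all features 3.32% were lower and 4.45% higher, and these shares stand beside every list that follows. The calls of Cxcl9, Ccl5 and Cx3cl1 were lost with all 18 arrays. Ccl2, the main attractant of monocytes, had 10.37 at day 0 and 10.54 to 11.13 in co-culture in KO, against 8.78 and 11.42 to 12.49 in wildtype. It rose 8.98-fold in wildtype with no called change in KO, and the interaction was -2.80 ± 0.34 (adjusted p = 8.2e-06). Cxcl1, another neutrophil chemokine, rose in both, by 2.06 in KO and 3.49 in wildtype (log2 response). Cxcl15, a lung-type CXC chemokine, went the other way: it had 7.45 at day 0 and 11.74 to 11.99 in co-culture in KO, and was not above background on any of 6 wildtype arrays (4.10 to 4.36). It rose 21-fold in KO, with an interaction of 4.33 ± 0.24 (adjusted p = 9.7e-11). The wildtype response of Cxcl15 lies between background readings, as do those of Lbp, Prelp, Fmod, Bmp4, Axin2 and S100a7a. So do the KO responses of Ang4, Cxcl2, Cd55 and Dlk1. These interactions compare a measured response with one that could not be measured. Lbp, which hands bacterial lipopolysaccharide to CD14, had 4.57 at day 0, 8.52 and 8.38 at day 2, 9.14 and 8.84 at day 4 and 9.39 at day 6 in KO, against 4.28 to 4.78 on the 6 wildtype arrays. It rose at least 19.3-fold in KO and was undetected in wildtype, with an interaction of 4.36 ± 0.42.

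Of 25 interleukins, receptors and acute-phase genes 9 were lower and 1 higher, with a median of -0.73. Several acute-phase genes rose in both genotypes. Lcn2, an iron-scavenging antimicrobial lipocalin, had 8.22 at day 0 and 13.22 to 13.81 in co-culture in KO, against 6.08 and 13.60 to 14.71 in wildtype. It rose 40.7-fold in KO and 246.7-fold in wildtype, and the co-culture ranges overlapped, with an interaction of -2.60 ± 0.37. Hp, haptoglobin, had 4.66 at day 0 (not above background) and 9.33 to 10.27 in co-culture in KO, against 5.21 and 12.07 to 13.94 in wildtype. Here the co-culture ranges were apart, the rise was at least 34.7-fold in KO and measured as 215.5-fold in wildtype, and the interaction was -2.64 ± 0.53. Serpina3n, a protease inhibitor, had 4.32 to 4.92 in KO co-culture, against 5.96 to 6.68 in wildtype co-culture, with a rise of at least 3.31-fold in wildtype. Saa3 rose by 6.39 in KO and 8.23 in wildtype (log2 response). Lif, a cytokine of the interleukin-6 family, had 5.83 at day 0 and 4.81 to 5.64 in co-culture in KO, against 5.43 and 6.27 to 7.70 in wildtype, with an interaction of -1.90 ± 0.51 (adjusted p = 0.021). Il1rn, the natural antagonist of interleukin-1, was the 1 higher gene, rising by 3.65 in KO and 1.67 in wildtype (log2 response). Of the 10 calls 4 were left with all 18 arrays, those of Il11, Hp, Lcn2 and Serpina3n.

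Of 15 NF-kB subunits and feedback genes 4 were lower and 0 higher (median -0.15). Vcam1, an adhesion molecule for leukocytes, had 10.81 at day 0 and 10.90 to 11.11 in co-culture in KO, against 8.87 and 11.15 to 11.43 in wildtype. The wildtype arrays rose to just above the flat KO level, and the interaction was -2.20 ± 0.18 (adjusted p = 4.1e-08). Other Vcam1 probes gave -0.14 and -1.45. Bcl3, an atypical IkB protein, had 5.71 at day 0 and 5.54 to 6.37 in co-culture in KO, against 4.76 (not above background) and 6.86 to 7.41 in wildtype. Relb and Sod2, an NF-kB subunit and the mitochondrial superoxide dismutase, had interactions of -1.03 ± 0.28 and -0.99 ± 0.18. The call of Relb was lost with all 18 arrays. Of 11 MHC class I and antigen processing genes 4 were lower and 1 higher (median -0.68, but -0.04 on the authors' log2 values). H2-T23, a non-classical MHC class I gene, had 8.24 at day 0 and 8.80 to 9.23 in co-culture in KO, against 5.91 and 8.16 to 8.94 in wildtype, with an interaction of -1.88 ± 0.30. H2-D1 had -1.48 ± 0.25, while H2-K1, a classical MHC class I gene of the same family, was higher at 1.24 ± 0.28, with responses of 1.98 in KO and 0.74 in wildtype (log2). MHC class I genes are close in sequence, and whether a probe reads more than 1 of them was not tested. Of these 5 calls 0 were left with all 18 arrays.

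Of 19 matrix proteases and inhibitors 7 were lower (Ctsl, Timp3, Mmp3, Mmp2, Timp2, Ctsk and Mmp23) and 1 higher, with a median of -0.55, or -0.19 on the authors' log2 values. The calls of Mmp3, Ctsk and Mmp23 were lost with all 18 arrays. Ctsl, the lysosomal protease cathepsin L, had 6.70 at day 0 and 6.39 to 6.85 in co-culture in KO, against 6.86 and 8.84 to 9.81 in wildtype. The genotypes were alike at day 0 and did not overlap afterwards, with a 5.51-fold rise in wildtype and an interaction of -2.50 ± 0.34 (adjusted p = 2.8e-05). Timp3, a matrix-bound metalloproteinase inhibitor, had 10.44 at day 0 and 9.74 to 10.33 in co-culture in KO, against 6.39 and 8.20 to 8.57 in wildtype. Its interaction was -2.44 ± 0.26, and other probes gave -0.40 and -0.85. Mmp3, the AP-1 target stromelysin whose promoter is printed above, had 11.45 at day 0 and 11.95 to 12.59 in co-culture in KO, against 5.63 and 8.05 to 9.17 in wildtype. KO was higher on every day, and the smaller rise in KO (1.82-fold against 7.77-fold in wildtype) gave an interaction of -2.09 ± 0.39 (adjusted p = 0.0010). That call was lost on the authors' log2 values (-1.0, adjusted p = 0.060) and with all 18 arrays (-1.54, adjusted p = 0.54), within a range over the alternatives of 1.4e-06 to 0.54. Plat, tissue plasminogen activator, was the 1 higher gene at 1.84 ± 0.21. Mmp2, a gelatinase, fell by 0.61 on the log2 scale in KO and rose by 1.19 in wildtype. Of 14 basement membrane genes 3 were lower (Col4a1, Hspg2 and Agrn, at -1.22, -1.21 and -1.03) and 1 higher, Col4a5 at 0.88. Of these 4 calls 0 were left with all 18 arrays, and that of Col4a5 was lost in 11 of 22 alternatives.

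Among secreted signals, Fgf10, a mesenchymal factor for epithelia, had 5.40 at day 0 and 6.22 to 6.63 in co-culture in KO, against 5.96 and 9.05 to 9.36 in wildtype. It rose in both, 2.13-fold in KO and 9.57-fold in wildtype, with an interaction of -2.17 ± 0.27 (adjusted p = 9.3e-06). Of the 18 growth factors acting on keratinocytes 2 were lower (Fgf10 and Lif) and 1 higher, Pdgfa at 0.98 ± 0.18. The calls of Lif and Pdgfa were lost with all 18 arrays. Igfbp5, an insulin-like growth factor binding protein, had 6.53 at day 0 and 6.27 to 6.78 in co-culture in KO, against 8.97 and 11.36 to 11.99 in wildtype, an interaction of -2.63 ± 0.28. Of the 14 genes of that system Igfbp5, Stc1 and Igfbp4 were lower and Igfbp6 was higher, and 0 of these 4 calls were left with all 18 arrays. Angptl4, a lipoprotein lipase inhibitor listed with the glucocorticoid and the adipogenic genes, had 6.46 at day 0 and 5.71 to 6.54 in co-culture in KO, against 7.47 and 8.87 to 9.72 in wildtype, an interaction of -2.25 ± 0.40. Of 15 glucocorticoid response genes 5 were lower and 1 higher (median -0.15), and 3 of these 6 calls were left with all 18 arrays. Of 9 adipogenic genes 3 were lower (Angptl4, Cebpb and Dlk1) and 0 higher (median -0.38). The call of Dlk1, which was undetected in KO, was lost with all 18 arrays. Cebpb, a transcription factor of adipogenesis and the acute phase, had -1.18 ± 0.16. Dpt, a dermal matrix protein, had 4.29 to 5.09 in KO co-culture, against 6.78 to 7.12 in wildtype co-culture, where it rose at least 4.89-fold, with an interaction of -2.88 ± 0.41.

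Of the 11 AP-1 subunits tested, Jun and Junb were lower and 0 were higher. Jun, the main substrate of JNK and itself an AP-1 target, had 6.70 at day 0 and 6.48 to 6.83 in co-culture in KO, against 9.39 and 10.17 to 10.41 in wildtype. The KO level was flat and the wildtype level rose 1.89-fold from a higher start, an interaction of -1.0 ± 0.23 (adjusted p = 0.0063). Junb had 10.94 at day 0 and 10.99 to 11.28 in co-culture in KO, against 9.95 and 10.71 to 11.23 in wildtype, with -0.77 ± 0.22 (adjusted p = 0.030). Fos rose by 3.63 in KO and 2.87 in wildtype (log2 response), and its interaction of 0.75 ± 0.55 did not pass. With all 18 arrays neither Jun nor Junb passed. Of 18 other immediate early genes 4 were higher (Egr3, Egr2, Klf2 and Ier3) and 3 lower (Myc, Ccn1 and Klf6), of which Myc alone was left with all 18 arrays. Egr3, an early growth response factor, had 7.80 at day 0 and 8.97 to 9.98 in co-culture in KO, against 10.87 and 10.15 to 10.66 in wildtype, an interaction of 2.24 ± 0.36, with another probe at -0.91. Dusp2, a nuclear MAP kinase phosphatase, was the 1 lower gene of 13 phosphatases and Sprouty inhibitors, at -1.79 ± 0.51 (adjusted p = 0.031). It fell short of the threshold in 5 of 22 alternatives, 1 of them without wildtype day 4 replicate 2. Of 10 JNK pathway kinases and scaffolds 0 were called. The nearest was Mapk8ip1, a JNK scaffold, at 0.80 ± 0.25 (adjusted p = 0.056).

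Repression in co-culture that was smaller in KO was led by glutathione transferases. Gsta1, an alpha-class glutathione S-transferase, had 10.29 at day 0, 8.49 and 8.62 at day 2, 8.70 and 9.26 at day 4 and 8.63 at day 6 in KO. In wildtype it had 11.16 at day 0, 5.41 and 5.71 at day 2, 4.89 and 5.47 at day 4 and 5.22 at day 6. It fell in both genotypes, 2.92-fold in KO and 56.3-fold in wildtype, and the co-culture arrays did not overlap. The interaction was 4.27 ± 0.36 (adjusted p = 4.4e-08). Gsta2 had 9.65 at day 0 and 7.58 to 8.39 in co-culture in KO, against 10.41 and 4.78 to 5.70 in wildtype, an interaction of 3.48 ± 0.40. The alpha-class transferases are close in sequence, and whether their probes share transcripts was not tested. Of 17 NRF2, glutathione and metallothionein genes 7 were higher (Gsta1, Gsta2, Aldh3a1, Gsta3, Gsta4, Gstm1 and Gclm) and 0 lower, with a median of 0.55, and 10 fell in KO against 12 in wildtype. The mean of the list was 8.62 at day 0 and 7.86 to 8.17 in co-culture in KO, against 9.68 and 8.00 to 8.06 in wildtype, so the genotypes met in co-culture from unequal starts. Hmox1, heme oxygenase and a standard NRF2 target, fell by 1.80 on the log2 scale in KO and by 1.71 in wildtype, and Nqo1 by 1.22 and by 1.84, with neither interaction called. The 7 calls passed also with 18 arrays.

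Wwc1, a scaffold of the Hippo pathway, had 8.48 at day 0 and 7.75 to 8.14 in co-culture in KO, against 7.98 and 4.64 to 5.25 in wildtype. It fell 7.82-fold in wildtype with no called change in KO, an interaction of 2.47 ± 0.33 (adjusted p = 2.5e-05). Calr3, a calreticulin paralog, had 5.05 at day 0 and 5.47 to 5.98 in co-culture in KO, against 8.28 and 5.51 to 6.01 in wildtype, where the genotypes met. Its interaction was 3.22 ± 0.37, with 1 of its other probes at -0.41. Col2a1, the cartilage collagen, was detected on 1 of 6 KO arrays (4.26 to 5.02) and fell in wildtype, which had 8.06 at day 0 and 5.58 to 7.07 in co-culture, so a fall in KO could not have been seen. Sh3rf2, a regulator of JNK scaffolds, had 5.40 at day 0 and 4.62 to 6.02 in co-culture in KO, against 7.93 and 5.52 to 6.13 in wildtype, an interaction of 2.14 ± 0.52. In 135 of the 176 features of this class the wildtype day 0 level lay above the KO co-culture mean. That count uses the day 0 array that chose the class and is partly built in, and its share over all features was not taken. Sgk1, a glucocorticoid-induced kinase, and Nrp1, a VEGF and semaphorin receptor, also fell in wildtype, with interactions of 1.03 ± 0.21 and 1.24 ± 0.25.

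Induction seen in KO and not in wildtype, or larger in KO, was the most numerous class under quantile normalisation. The classes were not counted under median scaling, where 32.3% of the called interactions were higher in place of 57.2%. Alox5ap, which presents arachidonic acid to 5-lipoxygenase, had 4.75 at day 0, 8.29 and 8.19 at day 2, 8.36 and 8.4 at day 4 and 8.32 at day 6 in KO, against 4.32 to 4.99 on the 6 wildtype arrays. It rose at least 11.8-fold in KO and stayed near background in wildtype, with an interaction of 3.51 ± 0.35 (adjusted p = 5.7e-07). Cygb, a globin of fibroblasts, rose in both: it had 6.47 at day 0 and 11.84 to 12.31 in co-culture in KO, against 4.48 (not above background) and 5.67 to 7.65 in wildtype. The rises were 47.8-fold in KO and at least 4.54-fold in wildtype, and the interaction was 3.27 ± 0.64. Tgm2, tissue transglutaminase, had 5.67 at day 0 and 8.26 to 9.06 in co-culture in KO, against 6.63 and 6.01 to 6.78 in wildtype. The genotype order turned round, with an interaction of 3.23 ± 0.38, while another Tgm2 probe gave 0.16. Aox3, an aldehyde oxidase, had 5.05 at day 0 and 7.58 to 8.49 in co-culture in KO, against 6.00 and 5.79 to 6.47 in wildtype, with 2.84 ± 0.39. Mgp, matrix Gla protein, had 7.24 at day 0 and 12.53 to 12.99 in co-culture in KO, against 11.48 and 14.28 to 14.40 in wildtype, so KO stayed below wildtype after a larger rise. Mfap4, a microfibril protein, had 6.07 at day 0 and 8.37 to 8.76 in co-culture in KO, against 4.48 to 5.16 on the wildtype arrays, of which 1 detected it.

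**Figure D3:**
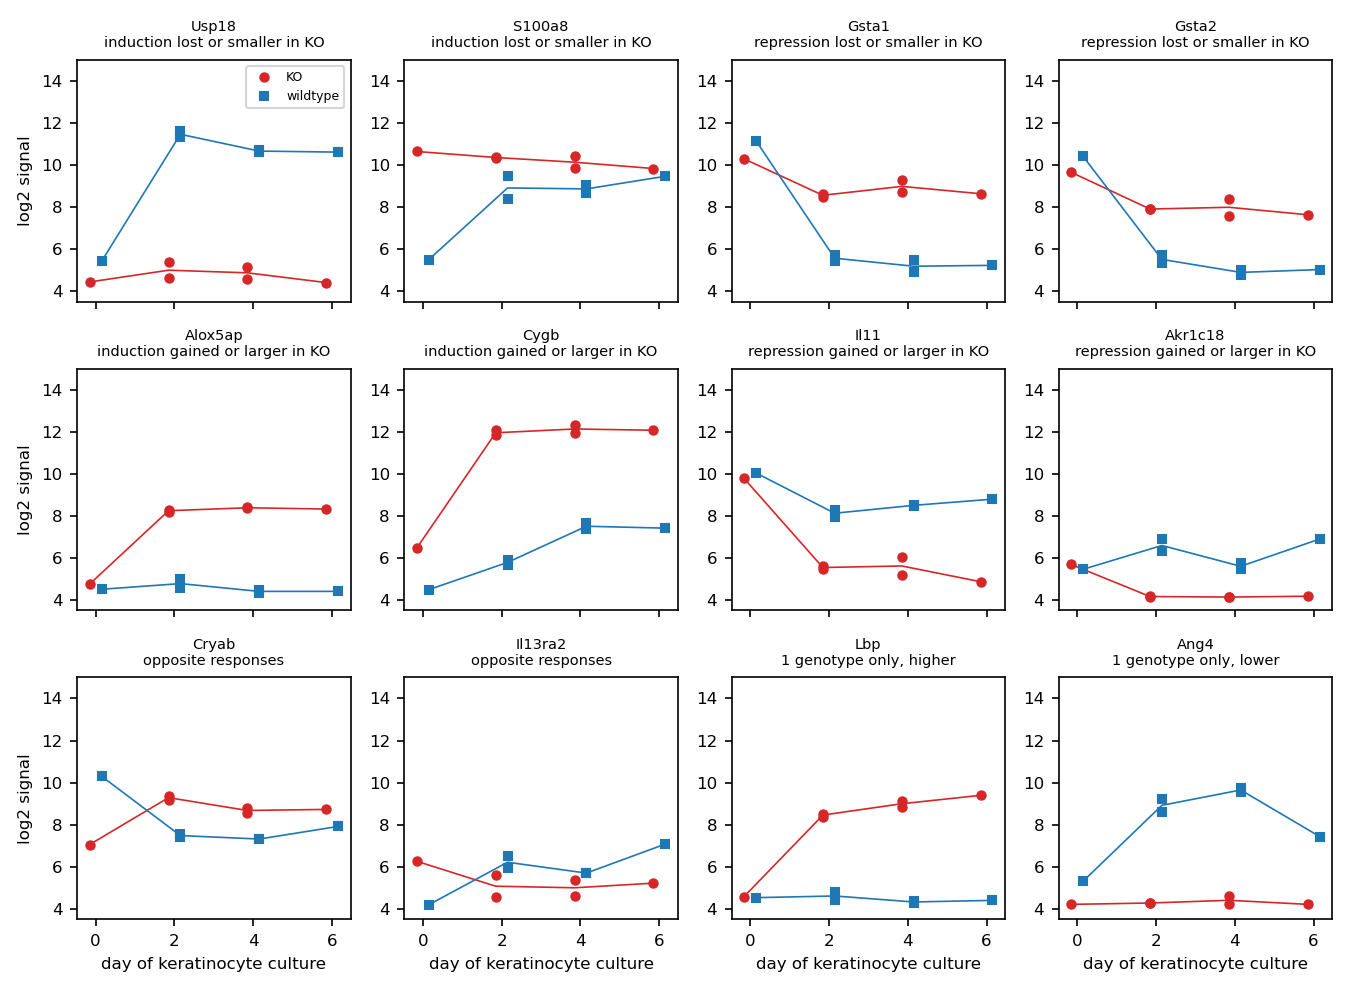
Log2 signal (y axis) of 12 genes on each of 12 arrays by day of keratinocyte culture (x axis), KO as circles and wildtype as squares, with lines through the means of a day. The genes are the first 2 of each class and the leading gene detected in 1 genotype only in each direction: Usp18 reaches 10.61 to 11.61 in wildtype co-culture alone and Lbp 8.38 to 9.39 in KO co-culture alone.

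Prelp, Fmod and Lum, small leucine-rich proteoglycans of a family that coats collagen fibrils, were among the matrix genes of this class. Dcn, Bgn and Ogn, of the same family and also tested, were not called. Of 23 fibrillar collagen and matrix genes 5 were higher (Prelp, Fmod, Lum, Thbs2 and Lox) and 3 lower (Fn1, Fbln2 and Col6a1). The calls of Lum, Fn1, Lox and Col6a1 were lost with all 18 arrays. Prelp, a proteoglycan that anchors collagen to basement membrane, had 7.89 at day 0 and 11.78 to 12.49 in co-culture in KO and was undetected on 6 wildtype arrays (4.20 to 4.60), with an interaction of 4.10 ± 0.30 (adjusted p = 5.0e-09). Fmod, fibromodulin, was undetected at day 0 and had 7.17 to 8.56 in co-culture in KO, a rise of at least 8.50-fold, and was undetected in wildtype (4.14 to 4.98). Lum, lumican, had 4.63 at day 0 (not above background) and 6.39 to 7.32 in co-culture in KO, against 4.60 to 5.08 on the wildtype arrays. The interactions of Fmod and Lum were 3.69 ± 0.55 and 2.41 ± 0.42. Fn1, fibronectin, went the other way at -1.59 ± 0.37. The list median was -0.05. Of 13 fibroblast markers, Dpt was lower and S100a4 higher, and the S100a4 call was lost with all 18 arrays.

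Of 17 sterol and fatty acid synthesis genes 9 had a higher interaction, 0 a lower one and 8 were not called, with a median of 0.60. In KO 16 rose, beside 13.2% of all features, against 9 in wildtype, beside 8.93%. The mean of the list was 8.08 at day 0 and 9.34 to 9.61 in co-culture in KO, against 8.55 and 9.06 to 9.22 in wildtype, so KO began below wildtype and ended above it. Dhcr7, the last enzyme of cholesterol synthesis, had 5.48 at day 0, 7.86 and 7.82 at day 2, 8.00 and 7.72 at day 4 and 8.06 at day 6 in KO, against 6.02 to 6.43 on the 6 wildtype arrays. It rose 5.32-fold in KO with no called change in wildtype, an interaction of 2.37 ± 0.29 (adjusted p = 1.0e-05). Mvd and Mvk, enzymes of the mevalonate pathway, had 1.55 ± 0.26 and 1.52 ± 0.28, and Scd2, a fatty acid desaturase, 1.31 ± 0.24. Lss and Sqle rose in both genotypes, by 1.14 and 0.86 in KO and by 1.00 and 0.62 in wildtype (log2 response), with neither interaction called. With all 18 arrays 4 of the 9 calls were left, those of Dhcr7, Mvk, Scd2 and Msmo1.

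Among secreted pattern signals, Bmp4, a bone morphogenetic protein, had 10.57 at day 0 and 11.99 to 12.21 in co-culture in KO. It was undetected on the wildtype arrays (4.27 to 4.78). Its interaction was 1.80 ± 0.26, and another probe gave 0.30. Wnt6, a Wnt ligand, had 8.81 at day 0 and 10.47 to 10.82 in co-culture in KO, against 4.54 to 5.05 in wildtype, with 1.84 ± 0.28. Both were far higher in KO before co-culture and rose from there. Of 16 TGF-beta, activin and BMP genes 4 were higher (Bmp4, Tgfbi, Tgfb3 and Skil) and 3 lower (Grem1, Inhba and Tgfbr1), with Bmp4 alone left with all 18 arrays. Grem1, a BMP antagonist, fell by 0.57 on the log2 scale in KO and rose by 0.90 in wildtype. Of 13 Wnt genes Wnt6 and Axin2 were higher and Ccn5 lower, and Wnt6 alone was left with all 18 arrays. Axin2 was undetected in wildtype (4.14 to 4.44), and its call was lost in 9 of 22 alternatives. Ccn5 had -1.24 ± 0.27 but -0.10 on the authors' log2 values (adjusted p = 0.86, with a range over the alternatives of 0.00041 to 0.86). Of 16 VEGF, PDGF and angiopoietin genes 3 were higher (Nrp1, Vegfd and Pdgfa) and 0 lower, and 0 of the 3 calls were left with all 18 arrays. Sesn1 and Bbc3, p53 targets, were higher at 1.22 ± 0.20 and 1.17 ± 0.29, while another Bbc3 probe gave -0.47.

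Among genes detected in both genotypes, repression that was larger in KO was led by Il11, a cytokine of the interleukin-6 family and an AP-1 target. It had 9.78 at day 0, 5.59 and 5.48 at day 2, 5.18 and 6.04 at day 4 and 4.86 at day 6 in KO. In wildtype it had 10.04 at day 0, 8.29 and 7.95 at day 2, 8.51 and 8.48 at day 4 and 8.79 at day 6. The genotypes were near each other at day 0, both fell, 20.4-fold in KO and 3.11-fold in wildtype, and the interaction was -2.72 ± 0.42 (adjusted p = 0.00014). Akr1c18, a progesterone-reducing enzyme, had 5.68 at day 0 in KO and was undetected in KO co-culture, a fall of at least 2.15-fold, against 5.45 and 5.46 to 6.89 in wildtype. Col7a1, the collagen of anchoring fibrils, had 8.87 at day 0 and 6.02 to 6.31 in co-culture in KO, against 7.50 and 6.66 to 7.0 in wildtype, an interaction of -2.10 ± 0.29. Myc, a growth-promoting transcription factor, had 7.50 at day 0 and 5.51 to 5.98 in co-culture in KO, against 5.87 and 5.47 to 6.53 in wildtype, so the KO arrays came down to the wildtype range (-1.95 ± 0.46, adjusted p = 0.0079). S100a7a, of the psoriasin family, was detected in KO alone, with 8.45 at day 0 and 4.82 to 5.43 in co-culture, a 9.81-fold fall. A fall of S100a7a in wildtype could not have been seen, since it was undetected there. Lpp, a focal adhesion protein, and Pisd, a mitochondrial phospholipid enzyme, had -1.76 ± 0.37 and -1.79 ± 0.42, and another Lpp probe gave 0.57. In 174 of the 200 features of this class KO was higher than wildtype at day 0. The same day 0 arrays chose the class, so this count is partly built in. Its share over all features was not taken. Of 27 cell cycle and replication genes 3 were lower, the helicase subunits Mcm3, Mcm6 and Mcm2 (-1.12, -0.88 and -0.69), and 2 higher (Cdca8 and Aurka), and 0 of these 5 calls were left with all 18 arrays. In KO 17 fell, beside 11.1% of all features, against 15 in wildtype, beside 8.36%.

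Opposite responses were led by Cryab, a small heat shock protein. It had 7.05 at day 0, 9.37 and 9.19 at day 2, 8.53 and 8.81 at day 4 and 8.72 at day 6 in KO, against 10.30, 7.55 and 7.40, 7.33 and 7.29, and 7.91 on the same days in wildtype. Cryab rose 3.67-fold in KO and fell 6.98-fold in wildtype, an interaction of 4.68 ± 0.34 (adjusted p = 5.0e-09), and the order of the genotypes turned round. Gask1b, a Golgi-associated kinase family protein, had 5.89 at day 0 and 8.07 to 8.55 in co-culture in KO, against 10.85 and 9.90 to 10.60 in wildtype, with 3.00 ± 0.28. Gper1, a membrane oestrogen receptor, had 6.07 at day 0 and 7.58 to 8.02 in co-culture in KO, against 6.04 and 4.48 to 5.33 in wildtype, with 2.89 ± 0.41, from a common start. Kazald1, a secreted binding protein of the IGFBP-related group, had 5.84 at day 0 and 7.53 to 7.92 in co-culture in KO, against 5.66 and 4.31 to 5.33 in wildtype, with 2.70 ± 0.42. Il13ra2, the decoy receptor of interleukin-13, had 6.25 at day 0 and 4.55 to 5.58 in co-culture in KO, against 4.18 (not above background) and 5.67 to 7.07 in wildtype, with -3.18 ± 0.59. Ppl, the cell junction protein periplakin, had 7.48 at day 0 and 5.98 to 6.31 in co-culture in KO, against 6.70 and 8.05 to 8.18 in wildtype. Its interaction was -2.78 ± 0.27, and other probes gave -1.91 and -0.14.

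The 2 stress genes Gadd45a and Gadd45g also moved in opposite directions, and against each other. Gadd45a, which acts upstream of JNK and p38 and in growth arrest, had 8.28 at day 0 and 7.40 to 7.78 in co-culture in KO, against 8.62 and 9.77 to 10.34 in wildtype, with -2.09 ± 0.26 (adjusted p = 1.1e-05). Gadd45g had 9.44 at day 0 and 9.93 to 10.45 in co-culture in KO, against 8.90 and 7.48 to 7.92 in wildtype, with 2.05 ± 0.25 (adjusted p = 8.6e-06). Aldh3a1, an aldehyde dehydrogenase of the NRF2 list, had 12.89 at day 0 and 13.54 to 13.80 in co-culture in KO, against 11.36 and 9.47 to 9.86 in wildtype, with 2.52 ± 0.18. Of 18 cyclin-dependent kinase inhibitors and p53 targets 3 were higher and 3 lower, and of 11 heat shock genes Cryab, Hspb1 and Hspb8 were higher and 0 lower. With all 18 arrays 2 of the 6 calls of the first list were left, those of Gadd45a and Bbc3. Gadd45g had an adjusted p of 0.071 in that fit, and of the 3 heat shock calls that of Cryab alone was left.

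**Figure D4:**
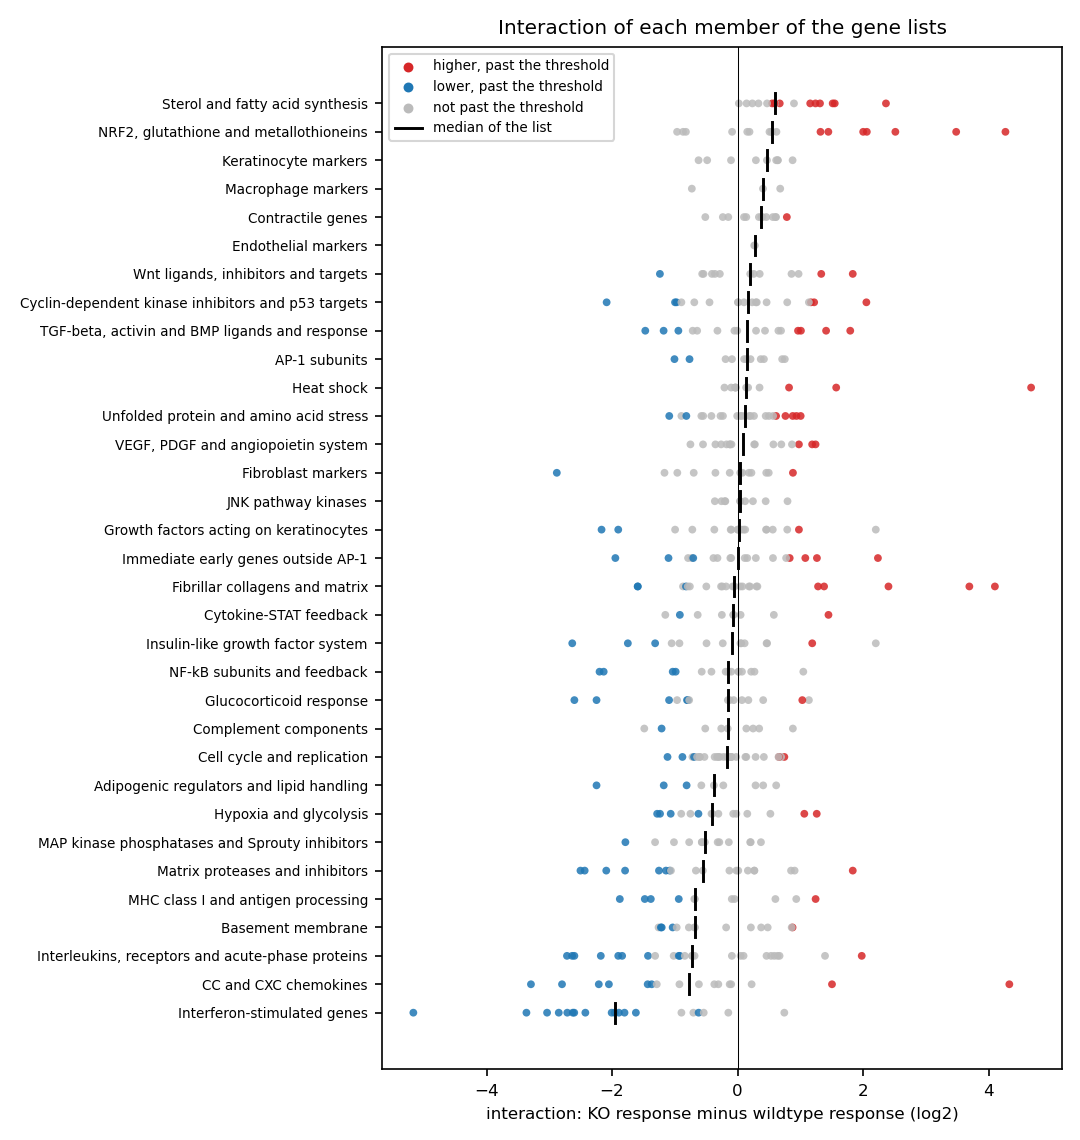
Interaction (x axis, log2 KO response minus wildtype response) of each tested member of 33 gene lists (y axis, ordered by median), red where higher and blue where lower past the threshold, grey otherwise, with a black bar at the list median. The interferon-stimulated genes have the lowest median (-1.96) and the sterol and fatty acid genes the highest (0.60).

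The remaining lists held few calls or calls in both directions. Pfkl, Egln1, Pdk1 and Ldha were lower and Ndrg1 and Egln3 higher among 15 genes of the hypoxia response and glycolysis (median -0.40). Pdia6, Chac1, Trib3, Herpud1 and Asns were higher and Vldlr and Phgdh lower among 23 genes of the unfolded protein and amino acid responses, and another Trib3 probe gave -0.86. Of 9 genes of cytokine-STAT feedback, Bcl6 was higher and Socs3 lower. Of these 15 calls that of Pfkl alone was left with all 18 arrays. Of 13 contractile genes Acta2 was higher (0.79 ± 0.24, with another probe at -0.16), and of 9 complement genes Cd55 was lower (-1.21 ± 0.37, adjusted p = 0.046), a call lost in 15 of 22 alternatives. Cd55 was undetected in KO (4.27 to 4.37). Neither the Acta2 nor the Cd55 call was left with all 18 arrays. The medians of the kinase inhibitor, fibroblast marker, growth factor, heat shock, immediate early, JNK kinase, TGF-beta, stress and VEGF lists, all between 0.01 and 0.17, turned negative when arrays were scaled to a common median.

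The interaction was also fitted for each day, and the 3 values of a gene share the day 0 arrays. Usp18 had -5.49 at day 2, -4.81 at day 4 and -5.22 at day 6, and Gsta1 had 3.87, 4.67 and 4.28. Ang4 had -3.55 at day 2, -4.15 at day 4 and -2.12 at day 6, and Dusp2 had -2.50, -1.68 and -0.57. No test of a difference between days was made. Outside the contrast, 3 KO and 3 wildtype day 6 arrays of the second processing set gave the KO minus wildtype difference on separate inserts. With all 18 arrays normalised together, Usp18 differed by -4.93 in the second set and by -6.28 in the first set's co-culture, beside -1.23 at day 0. Gsta1 differed by 1.99 and 3.46 beside -0.85, Lbp by 4.82 and 4.69 beside 0.07, Cryab by 1.60 and 1.41 beside -3.19, and Oas1g by -1.54 and -3.16 beside 1.21. These genes kept their sign between the sets, but Sh3rf2 and Pisd did not. Sh3rf2 differed by 0.35 in the second set and -0.45 in the first, and Pisd by 0.32 and -0.41.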

How the data were processed

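The authors deposited a table of bead intensity with a detection p-value per probe, not normalised, per the file headers. They also deposited log2 values, which differ by at most 0.005 from log2 of quantile-normalised intensity and were used in an alternative. The array is a single-colour Illumina mouse bead array, per the labels' protocols. Scanning and summarising are not given in the sources used here. The detection p-value was read as 1-sided on the 12 arrays of the contrast, from the values.

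Intensities of the 12 arrays were corrected with normexp, offset 16, quantile normalised and taken to log2 (neqc in limma 3.58.1, R 4.3.3). Probes detected at p under 0.01 on at least 2 arrays were kept (22360 of 45121), and the probe with the highest mean signal stood for each gene, of which 4574 had several. Of all probes 34763 had 1 gene symbol, 18 several and 10340 none. limma's lmFit and eBayes with 8 residual degrees of freedom gave 2-sided tests, Benjamini-Hochberg adjusted over 15497 features at 0.05. The number of arrays limits the precision. Where a group was undetected on all its arrays, a response is given as "at least", against the lowest detected signal (4.48 to 4.65 log2), while an interaction is a fitted value without a bound.

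A called feature is opposite where both responses pass with opposite signs, and otherwise goes by the genotype with the larger response. Named genes are the 6 with the largest interaction in each of 5 classes, the 3 in each direction detected in 1 genotype only, up to 4 of each of 33 gene lists, and Mapk8 and Mapk9. Genes named outside this rule, as other members of these lists, were chosen after their values were seen. The members and lists were chosen with earlier results of these data known. Alternatives were other scalings, the detection filter, single days, pooled inserts, every probe, 18 arrays, a replicate block and each array left out. The statistics were tested on simulated data.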

Additional observations from a re-analysis of the deposited data

Results flagged for a closer look

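Among the 5 co-culture arrays of each genotype, 11 of 248 sets of values held an array apart from the others, and chance gives about 1 in 20. In KO, Angptl7 had 5.44 at day 2 replicate 1, with the nearest at 4.59, and Gsta1 had 9.26 at day 4 replicate 2, with the nearest at 8.70. Pisd was lowest in KO at day 2 replicate 1 with 4.28, beside 4.68, as was Inhba with 7.85, beside 8.08, while Mcm3 was highest there with 7.71, beside 7.54. KO day 4 replicate 1 was highest for Ang4 (4.59, beside 4.27), Col4a1 (11.13, beside 10.79) and Plat (9.46, beside 9.10). Cd55 had 4.37 in KO at day 2 replicate 2, beside 4.30. In wildtype, Cxcl15 had 4.36 at day 2 replicate 2, beside 4.15, and Pfkl had 11.75 at day 6 replicate 1, beside 11.30.

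The response differed between genotypes for 1204 features by the interaction term. Of the genes that moved in opposite directions, the interactions (log2) were 4.68 for Cryab, -3.18 for Il13ra2, 3.00 for Gask1b, 2.89 for Gper1, -2.78 for Ppl and 2.70 for Kazald1.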

How the results depend on the processing

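The count of 1204 interactions ranged from 861 to 1493 over all alternatives but 1: with all 18 arrays and the set as a block it was 333, and the wildtype response fell to 1742 calls, beside 2679. The cause was not tested. Scaling to a common median gave 873 interactions, 32.3% of them higher. With 1 array left out the count ran from 1026 to 1232 for the interaction, from 3544 to 3859 for the KO response and from 2415 to 2746 for the wildtype response. With the replicate number as a replicate block 1051 interactions were called. The values showed little sign that the numbers pair the samples: same-numbered deviations correlated between -0.11 and 0.08, and 2 of 5 samples correlated best with their own number. So few samples cannot settle whether they were handled in pairs. Of the named calls, 66 of 119 were lost with 18 arrays, 22 of 120 without the detection filter, 17 at day 6 alone, 15 under median scaling and 2 to 7 with 1 array left out. The call of Egln1 was lost in 18 of 22 alternatives. The uncalled interaction of Mapk9 turned to 0.076 on the authors' log2 values and to 0.0039 at day 4 alone, and that of Mapk8 to -0.43 at day 6 alone. Genes near background, 1 day 0 array per genotype and 1 line per genotype limit every result.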
